A study of Mus musculus with 26 samples.

Results

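The glutathione S-transferase genes described here are Gsta1, Gsta2, Gsta3 and Gsta4 of the alpha class, Gstm1, Gstm2, Gstm3 and Gstm4 of the mu class, Gstp1 of the pi class and Gstt1 of the theta class. They were chosen by name: each array probe carrying one of these 10 symbols was taken, which gave 13 probes, for 10 of the 26665 genes measured. The RNA came from liver cells of Foxl1-Cre; RosaYFP mice aged 6 to 10 weeks, in which cells with a history of Foxl1-driven Cre recombinase, and the descendants of those cells, carry the yellow fluorescent protein YFP. Cells other than hepatocytes that lacked the leukocyte protein CD45 were sorted by YFP after 3, 7 or 14 days on a diet with DDC, a porphyrinogenic toxin that injures bile ducts and hepatocytes. Arrays of YFP-positive cells numbered 4 at day 3, 3 at day 7 and 2 at day 14, and arrays of YFP-negative cells numbered 3 at each of these days. The control, called day 0, was total non-parenchymal cells of chow-fed mice of the same cross on 2 arrays. Per the labels it was neither depleted of CD45-positive cells nor sorted by YFP, so the diet and the sort cannot be told apart in any comparison with it. The YFP-negative fraction is all that remained of the CD45-negative cells and is not one cell type. The labels do not say whether an array held 1 mouse or a pool, so the p-values measure the spread between these samples.

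Glutathione S-transferases join glutathione to reactive, electrophilic molecules such as drug metabolites and products of lipid peroxidation, which makes them easier to export from the cell. Alpha and mu enzymes are abundant in hepatocytes and are classic targets of the transcription factor NRF2 and of the xenobiotic receptors CAR and PXR. The pi enzyme is also found in bile duct cells.

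The arrays were Agilent 1-colour 44k arrays, on which 81.0 to 91.2% of the non-control spots were well above background. A level below is the log2 processed signal minus the log2 75th percentile of the same array, so 0 is the signal that 75% of the spots lie under, and a level can be compared between arrays for one probe but not between probes. Markers of other cells varied between arrays of the same group. The mean of the 18 measured hepatocyte markers (of 20 listed; 15 of the 18 were well above background on every array, Alb among them) ran from -2.02 to 1.04 on YFP-positive arrays, -1.90 to 2.33 on YFP-negative arrays and -1.57 to -0.93 at day 0, although hepatocytes are the cells that a non-parenchymal preparation removes. The fourth YFP-positive array of day 3 stood apart in its markers, with a biliary mean of 2.85, a stellate mean of -3.31 and a macrophage mean of -3.24, while other arrays of its group reached 1.44 for the stellate list and 3.35 for the macrophage list. Biliary means overlapped between the fractions. They ran from -1.43 (day 3 replicate 3) to 2.85 on YFP-positive arrays and from -3.05 to 0.59 (day 14 replicate 3) on YFP-negative arrays. YFP-negative day 3 replicate 3 was at 0.16. In these bulk samples, more cells of a type and more RNA per cell cannot be told apart.

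Each of the 13 probes was 60 bases long, none was saturated, and all but the Gsta2 probe were well above background on all 20 arrays. Gsta2 was not well above background on day 0 replicate 1. In the mm9 assembly that the files use, the alpha probes Gsta4 (chr9:78046172-78047344), Gsta1 (chr9:78083844-78087325) and Gsta2 (chr9:78181644-78181703) lie side by side on chromosome 9, and Gsta3 (chr1:21255189-21255248) lies on chromosome 1. The mu genes form a cluster on chromosome 3, with Gstm3 at chr3:107766730-107766789, Gstm2 at chr3:107784622-107784681, Gstm1 at chr3:107815180-107815239 and Gstm4 at chr3:107843802-107843861. Gstp1 is on chromosome 19 (chr19:4035486-4035545) and Gstt1 on chromosome 10 (chr10:75249693-75256857). The Gsta1 probe covers 3482 bases of genome with its 60 bases, so its match is split, as across an exon junction, whereas the Gsta2 probe is unbroken. The probes of Gsta1 and Gsta2 are shown because both genes passed the test in the same comparison and the probes share a run of 20 bases, in capitals, which was the longest run shared by any pair of the 13 probes. How far either probe also reads the other transcript was not tested.
Gsta1: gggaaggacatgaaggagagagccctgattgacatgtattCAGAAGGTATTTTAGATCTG
Gsta2: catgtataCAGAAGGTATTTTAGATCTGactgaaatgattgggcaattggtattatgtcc

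Promoter stretches of the same pair are shown because the 2 levels moved together over the arrays. They run from 150 bases before the annotated start to 10 bases after it, in RefSeq's GRCm38.p6 table, at chr9:78230519-78230678 on the plus strand for Gsta1 and chr9:78347136-78347295 on the minus strand for Gsta2. Capitals mark runs of at least 12 bases that both stretches hold, 81 of 160 bases in each.
Gsta1: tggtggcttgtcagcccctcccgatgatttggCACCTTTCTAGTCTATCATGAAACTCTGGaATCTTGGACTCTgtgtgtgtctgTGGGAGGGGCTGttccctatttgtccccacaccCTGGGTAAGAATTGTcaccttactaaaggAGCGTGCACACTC
Gsta2: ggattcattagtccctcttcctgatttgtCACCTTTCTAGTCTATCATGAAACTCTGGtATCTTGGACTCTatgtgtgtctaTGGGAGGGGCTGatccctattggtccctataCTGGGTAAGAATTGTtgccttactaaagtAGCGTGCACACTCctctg
The longest shared run was 29 bases, against 16 for the next pair of different members, Gstm1 and Gstm3. Of the 10 genes, 9 had a promoter in that table, with 11 windows of 250 bases before to 50 after the start. Both strands were searched for TGACNNNGC, the core of the antioxidant response element that NRF2 binds, and it was in the window of Gsta3 and of no other member, while 12.4% of all 32851 windows held it. GCGTG, the core of the xenobiotic response element that the aryl hydrocarbon receptor binds, was in 4 of 9 (Gsta1, Gsta2, Gstm1 and Gstp1) against 32.4% of all windows. TGANTCA, the AP-1 site, was in Gstp1 alone of the 9, against 7.81% of all windows, and the motifs searched can overlap one another. Gstm1 and Gstm4 had more than a single window each, so counts of genes and shares of windows are unlike units. Sites outside the windows were not searched.

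Gsta1, an alpha enzyme of hepatocytes, had levels of 2.77, 2.67, 3.32 and 2.24 in YFP-positive cells and 3.80, 0.72 and 3.58 in YFP-negative cells at day 3. At day 7 it was at 2.03, 1.78 and 3.64 in YFP-positive cells, against 4.92, 4.87 and 4.44 in YFP-negative cells. At day 14 it was at 2.77 and 2.28 in YFP-positive cells and 4.04, 3.49 and 1.44 in YFP-negative cells, and the day 0 arrays gave -1.10 and -0.37. All 18 sorted arrays were thus above both day 0 arrays, and the 3 YFP-negative arrays of day 7 were above every other array.

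Gsta2, its close neighbour in sequence and on the chromosome, had levels of 2.71, 2.87, 3.39 and 1.5 in YFP-positive cells and 3.70, 0.64 and 3.68 in YFP-negative cells at day 3. At day 7 the levels were 1.05, 1.58 and 3.55 in YFP-positive cells, against 4.86, 4.93 and 4.30 in YFP-negative cells. At day 14 they were 2.60 and 0.77 in YFP-positive cells and 3.96, 3.43 and 0.78 in YFP-negative cells, while day 0 gave -7.41, which was not well above background, and -1.86. The order of arrays was close to that of Gsta1, with a Pearson r of 0.93 over the 20 arrays, and again no sorted array was as low as day 0.

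Gsta4, which clears aldehydes made by lipid peroxidation, was at -1.15, -1.68, -1.10 and -0.96 in YFP-positive cells and -0.04, -3.45 and -0.11 in YFP-negative cells at day 3. At day 7 it was at -1.07, -1.96 and -0.21 in YFP-positive cells and 1.41, 1.47 and -0.82 in YFP-negative cells. At day 14 the levels were -0.57 and -0.10 in YFP-positive cells and -0.64, -0.38 and -1.23 in YFP-negative cells, against -3.41 and -3.31 at day 0. Of the sorted arrays 17 of 18 were above both day 0 arrays, and YFP-negative day 3 replicate 3, at -3.45, was below them. Its probe was printed 10 times on each array, and these spots had a median SD of 0.096 (range over arrays 0.038 to 0.184), beside an SD of 1.35 between the 20 arrays.

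Gsta3, the alpha enzyme noted for protecting mice from aflatoxin, had group means within 1.19 log2 units of each other. These means (± SD) were 4.45 ± 1.01 (n = 4) in YFP-positive and 3.92 ± 0.07 (n = 3) in YFP-negative cells at day 3, and 4.53 ± 0.63 (n = 3) in YFP-positive and 4.98 ± 0.27 (n = 3) in YFP-negative cells at day 7. At day 14 they were 5.10 ± 0.19 (n = 2) in YFP-positive and 4.62 ± 0.26 (n = 3) in YFP-negative cells, against 3.91 ± 0.18 (n = 2) at day 0. The highest array was YFP-positive day 3 replicate 4 at 5.69, the array with the highest biliary mean, and ranges of neighbouring groups overlapped all along the order of the 7 means.

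**Figure D1:**
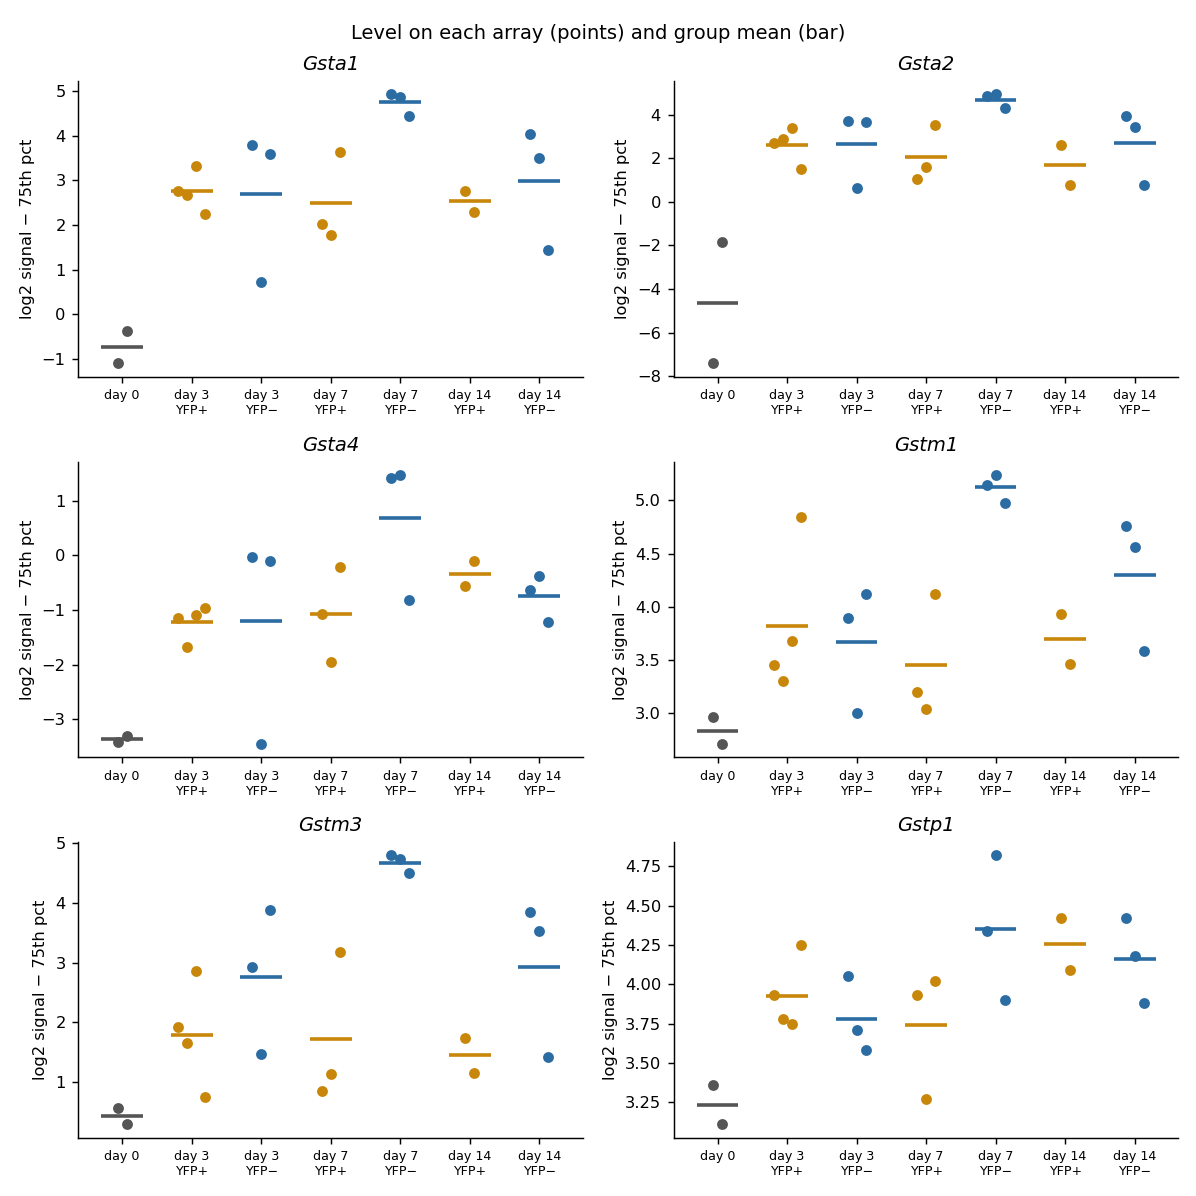
Levels (log2 signal minus the array's 75th percentile) of Gsta1, Gsta2, Gsta4, Gstm1, Gstm3 and Gstp1 on each of the 20 arrays, points for arrays and bars for group means, by day and sorted fraction. YFP-negative cells of day 7 have the highest mean in all 6 panels, 4.74 for Gsta1, and day 0 the lowest, -0.73 for Gsta1.

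Of the mu genes, Gstm3 varied most between groups. Its levels were 1.93, 1.65, 2.86 and 0.75 in YFP-positive cells and 2.93, 1.47 and 3.88 in YFP-negative cells at day 3. At day 7 they were 0.86, 1.14 and 3.18 in YFP-positive cells, against 4.79, 4.73 and 4.49 in YFP-negative cells. At day 14 they were 1.74 and 1.16 in YFP-positive cells and 3.85, 3.52 and 1.42 in YFP-negative cells, against 0.58 and 0.30 at day 0. As with Gsta1 and Gsta2, each sorted array was above both day 0 arrays and the YFP-negative arrays of day 7 stood highest.

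Gstm1, an abundant liver mu enzyme, was at 3.45, 3.30, 3.68 and 4.84 in YFP-positive cells and 3.89, 3.00 and 4.12 in YFP-negative cells at day 3. At day 7 it was at 3.20, 3.04 and 4.12 in YFP-positive cells, against 5.15, 5.24 and 4.98 in YFP-negative cells. At day 14 it was at 3.93 and 3.46 in YFP-positive cells and 4.76, 4.56 and 3.58 in YFP-negative cells, and day 0 gave 2.96 and 2.71. These 18 sorted arrays, too, were all above day 0, and a second Gstm1 probe gave the same separation.

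Gstm2, a further mu enzyme of the same cluster, had means of 2.81 ± 0.53 (n = 4) in YFP-positive and 3.30 ± 0.39 (n = 3) in YFP-negative cells at day 3. At day 7 its means were 2.29 ± 0.60 (n = 3) in YFP-positive and 3.45 ± 0.62 (n = 3) in YFP-negative cells. At day 14 they were 2.76 ± 0.68 (n = 2) in YFP-positive and 3.86 ± 0.22 (n = 3) in YFP-negative cells, against 3.60 ± 0.21 (n = 2) at day 0. The day 0 mean was second only to that of YFP-negative cells of day 14, and 12 of the 18 sorted arrays were below both day 0 arrays.

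Gstm4, the mu gene at the other end of the cluster, was at -2.47 ± 0.14 (n = 4) in YFP-positive and -3.55 ± 1.29 (n = 3) in YFP-negative cells at day 3, where 1 array lay at -5.01. At day 7 it was at -2.52 ± 0.10 (n = 3) in YFP-positive and -2.54 ± 0.20 (n = 3) in YFP-negative cells. At day 14 it was at -2.48 ± 0.77 (n = 2) in YFP-positive and -3.55 ± 0.44 (n = 3) in YFP-negative cells, against -2.78 ± 0.15 (n = 2) at day 0. Its means covered 1.08 log2 units, the smallest span of the 10 genes.

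Gstp1, the pi enzyme, had the second smallest span of means at 1.11 log2 units. It was at 3.93 ± 0.23 (n = 4) in YFP-positive and 3.78 ± 0.24 (n = 3) in YFP-negative cells at day 3, and at 3.74 ± 0.41 (n = 3) in YFP-positive and 4.35 ± 0.46 (n = 3) in YFP-negative cells at day 7. At day 14 it was at 4.26 ± 0.23 (n = 2) in YFP-positive and 4.16 ± 0.27 (n = 3) in YFP-negative cells, against 3.24 ± 0.18 (n = 2) at day 0. On 17 of 18 sorted arrays it was above both day 0 arrays, and by its second probe on all 18.

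Gstt1, a theta enzyme that acts on small halogenated molecules, spread widely within groups. It was at -2.77, -2.12, -3.82 and 0.74 in YFP-positive cells and -3.49, -2.44 and -4.34 in YFP-negative cells at day 3. At day 7 it was at -1.01, -4.08 and -2.51 in YFP-positive cells and -2.25, -2.38 and -3.28 in YFP-negative cells. At day 14 the levels were -2.38 and -1.46 in YFP-positive cells and -2.44, -2.48 and -3.61 in YFP-negative cells, against -4.30 and -3.18 at day 0. The level of 0.74 came from YFP-positive day 3 replicate 4, as did the highest Gsta3 level.

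**Figure D2:**
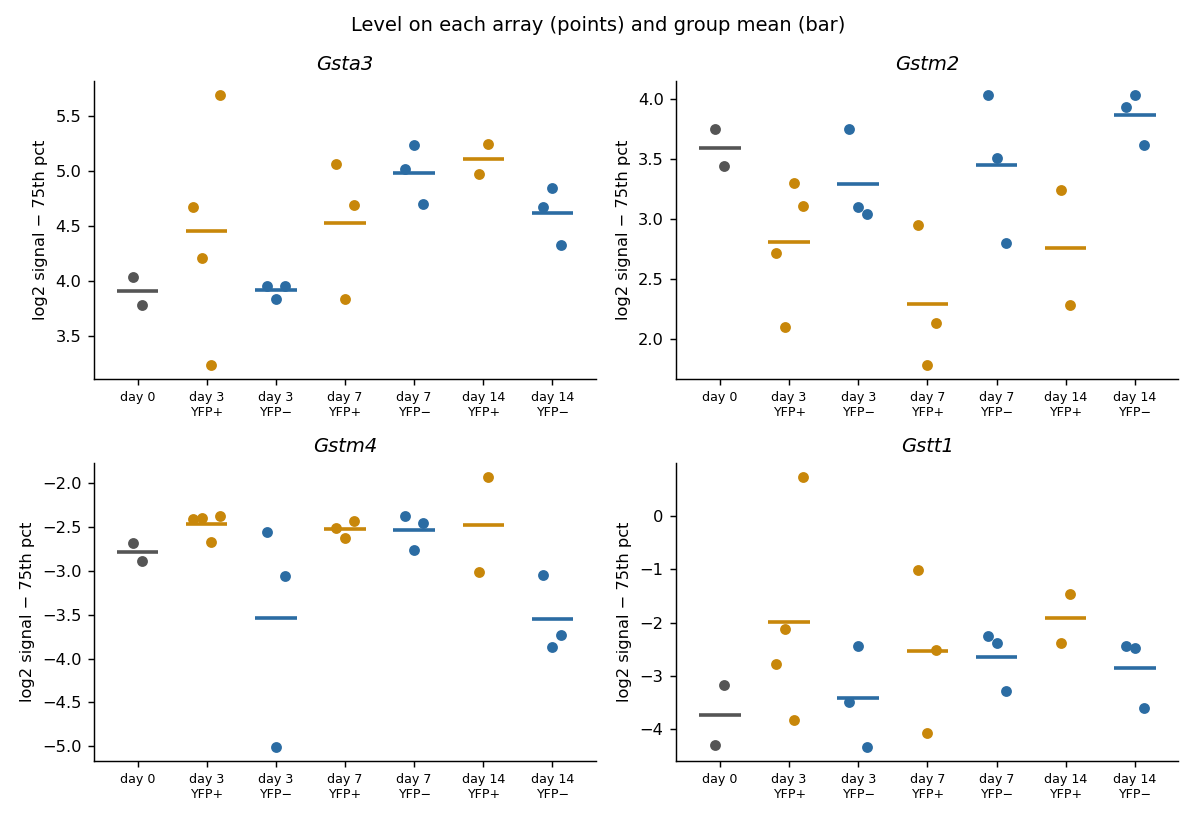
Levels (log2 signal minus the array's 75th percentile) of Gsta3, Gstm2, Gstm4 and Gstt1 on each of the 20 arrays, points for arrays and bars for group means, by day and sorted fraction. Groups next to each other in the order of their means overlap in all 4 panels, but the fractions of day 14 do not overlap in any. Of all genes, 13.6% were lower and 20.6% higher without overlap at day 14. The day 0 mean of Gstm2, at 3.60, lies above most sorted arrays.

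Ordered by mean, 6 of the 10 genes had their highest group in YFP-negative cells of day 7, 2 in YFP-positive cells of day 14 (Gsta3 and Gstt1), Gstm2 in YFP-negative cells of day 14 and Gstm4 in YFP-positive cells of day 3. For Gsta1, Gsta2, Gstm1 and Gstm3 the YFP-negative arrays of day 7 did not overlap the group next below, and the lowest sorted group did not overlap day 0. The 5 groups between did not separate from one neighbour to the next. For Gsta4 the day 0 arrays alone were separate from the next group by mean, and for the other 5 genes no 2 neighbouring groups separated.

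Against day 0, the question was whether the sorted cells of DDC-fed mice held these transcripts at other levels than cells of chow-fed mice. 2 alpha genes passed the test, in 1 of the 6 sorted groups. In YFP-negative cells of day 7, Gsta1 rose by 5.47 ± 0.87 on the log2 scale (± SE, 95% interval 3.62 to 7.33, 44.5-fold, adjusted p = 0.0313) and Gsta2 by 9.33 ± 1.40 (6.36 to 12.31, 645-fold, adjusted p = 0.0204). The Gsta2 fold rests on a day 0 group in which 1 of 2 arrays measured the gene above background. The fit was limma's over all 7 groups, with Benjamini-Hochberg adjustment over 26665 genes, and in this comparison 6 of those genes were called higher, 0.0225%. Next by p came Gstm3 with 4.23 ± 0.85 (adjusted p = 0.127), Gsta4 with 4.05 ± 0.89 (0.172) and Gstm1 with 2.29 ± 0.52 (0.197), none past the threshold. The second Gstm1 probe, in a limma fit of every probe on its own, had a lower p than Gstm3. That probe gave 2.78 ± 0.51 (adjusted p = 0.09 over 39615 probes). The median over the 10 genes was 1.70, beside -0.36 over all genes. The call of Gsta1 was lost in 9 of 20 fits that left out 1 array and that of Gsta2 in 3 of 20. The Gsta2 fits counted as holding include that without day 0 replicate 2. Its only day 0 array was not well above background for Gsta2, so that fit measures no fold. Leaving out day 0 replicate 1 gave 5.11 (adjusted p = 0.477) for Gsta1 and 6.56 (0.41) for Gsta2, and leaving out YFP-negative day 7 replicate 3 (0.167 and 0.118) or replicate 4 (0.0779 and 0.0585) ended both calls as well. The other 6 arrays whose removal ended the Gsta1 call were day 0 replicate 2 (adjusted p = 0.079), YFP-positive day 3 replicates 1 (0.0545) and 2 (0.0547), YFP-positive day 14 replicates 1 and 2 (0.0514 each) and YFP-negative day 14 replicate 2 (0.0512). Without YFP-negative day 3 replicate 3, Gsta4 passed as well, at 4.05 (0.0329).

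In the other 5 sorted groups no member passed, and the backgrounds of genes called in either direction were 0.0563%, 0.0375% and 0.146% for YFP-positive cells at days 3, 7 and 14 and 0.0525% and 0.0375% for YFP-negative cells at days 3 and 14. Unadjusted p-values under 0.05 were reached by 3, 4 and 4 of 10 members in YFP-positive cells at days 3, 7 and 14, beside 10.2%, 11.6% and 11.4% of all genes, and by 4 and 6 in YFP-negative cells at days 3 and 14, beside 6.5% and 11.8%. Gsta2 and Gsta1 had the lowest p in each. In YFP-positive cells, Gsta2 was higher than day 0 by 7.25 ± 1.33 at day 3 (adjusted p = 0.0761), 6.69 ± 1.40 at day 7 (0.111) and 6.32 ± 1.53 at day 14 (0.132). Gsta1 was higher by 3.48 ± 0.83 (0.228), 3.21 ± 0.87 (0.185) and 3.25 ± 0.96 (0.199) at the same days. In YFP-negative cells, the Gsta2 differences were 7.31 ± 1.40 at day 3 (0.127) and 7.36 ± 1.40 at day 14 (0.0879), and those of Gsta1 were 3.43 ± 0.87 (0.398) and 3.72 ± 0.87 (0.201). The third gene by p was Gsta4 in YFP-positive cells at day 3 with 2.14 ± 0.84 (0.442), at day 14 with 3.02 ± 0.98 (0.249), and in YFP-negative cells at day 14 with 2.61 ± 0.89 (0.389). It was Gstm3 in YFP-negative cells at day 3 with 2.32 ± 0.85 (0.693), and Gstm2 in YFP-positive cells at day 7, where it was lower than day 0 by the log2 value -1.31 ± 0.49 (0.337). In YFP-negative cells at day 14 the second Gstm1 probe, fitted on its own, had a lower p than Gsta4, at 1.79 ± 0.51 (adjusted p = 0.381). These 6 comparisons share the same 2 day 0 arrays. Without day 0 replicate 2, day 0 was 1 array on which Gsta2 was not well above background, with its spread taken from the other groups, so the Gsta2 differences and passes of those fits measure no fold and are not given. With arrays counted rather than tested, Gsta1, Gsta2, Gstm1 and Gstm3 were above both day 0 arrays on all 18 sorted arrays, 4 of 10 members beside 1.68% of all genes.

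Arrays on the same slide were also compared directly. On slide 1 Gsta1 was higher than day 0 by 3.87 in YFP-positive cells of day 3, 3.87 in YFP-positive cells of day 14 and 4.90 in YFP-negative cells of day 3, and on slide 3 by 3.68 in YFP-positive cells of day 3, each 1 array against 1. Gstm3 differed by 1.36, 1.17, 2.35 and 2.56 in the same pairs. No slide held both YFP-negative cells of day 7 and day 0, so the called comparison has no within-slide value, and with the slide as a fixed block it rested on slide differences from other groups and gave no call. Without YFP-positive day 3 replicate 4, the array that stood apart in its markers, both calls held, at 0.036 for Gsta1 and 0.0221 for Gsta2.

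**Figure D3:**
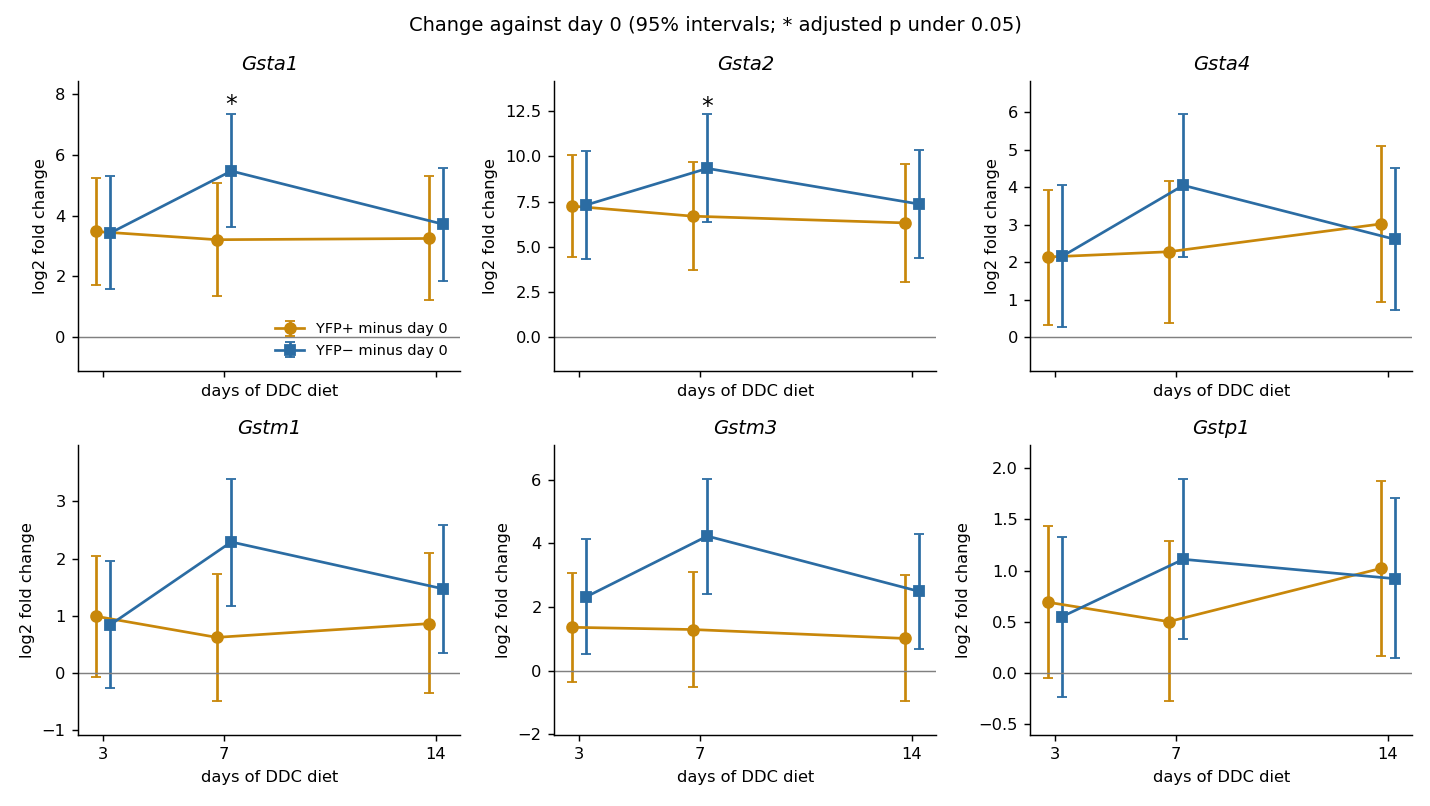
Fitted log2 fold changes against day 0 for 6 genes, YFP-positive cells (circles) and YFP-negative cells (squares) by days of DDC diet, bars for 95% intervals and stars for an adjusted p under 0.05. The stars stand at YFP-negative cells of day 7 for Gsta1 (5.47) and Gsta2 (9.33).

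Between the fractions, the question was whether cells with a Foxl1-Cre history hold these transcripts at other levels than the CD45-negative cells around them. Averaged over days 3, 7 and 14, no member passed the limma test, beside 171 of 26665 genes (0.641%), while 4 of 10 had an unadjusted p under 0.05, beside 21.4% of all genes. Gstm3 came closest, at a log2 difference of -1.79 ± 0.45 for YFP-positive minus YFP-negative cells (95% interval -2.75 to -0.84, adjusted p = 0.0684), followed by Gstm2 at -0.92 ± 0.26 (-1.47 to -0.37, 0.0861). Gstm1 was at -0.71 ± 0.28 (0.162), Gsta1 at -0.89 ± 0.46 (0.275), Gsta2 at -1.24 ± 0.74 (0.343), Gsta4 at -0.46 ± 0.47 (0.597) and Gstp1 at -0.12 ± 0.19 (0.751). The second Gstm1 probe, in the limma fit of every probe on its own, gave -0.84 ± 0.27 (adjusted p = 0.114). Positive differences were those of Gstm4 at 0.72 ± 0.29 (0.177), Gstt1 at 0.82 ± 0.57 (0.426) and Gsta3 at 0.19 ± 0.29 (0.736). The median over the members was -0.58, beside 0.06 over all genes. Gstm3 passed with quantile normalization (-1.77, adjusted p = 0.0442) and in 3 of 20 fits without 1 array, without YFP-negative day 3 replicate 3 (0.0463), YFP-negative day 14 replicate 3 (0.0424) or YFP-positive day 3 replicate 3 (0.0304).

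At single days no member passed either. At day 7, where 0 of 26665 genes passed (0%), the lowest p-values were those of Gstm3 at -2.94 ± 0.76 (adjusted p = 0.588), Gstm1 at -1.67 ± 0.47 (0.631) and Gsta1 at -2.26 ± 0.78 (0.756), and 5 of 10 members had an unadjusted p under 0.05, beside 5.27% of all genes. The second Gstm1 probe, in the fit of every probe on its own, had a lower p than Gstm3, at -2 ± 0.46 (adjusted p = 0.425). Gsta1, Gsta2, Gstm1 and Gstm3 were lower on each YFP-positive array of day 7 than on any YFP-negative one, 4 of 10 beside 5.11% of all genes, and none was higher in that way, beside 4.29%. Of the 18 hepatocyte markers 17 were also lower in YFP-positive cells of day 7, by a median of -1.97, beside -1.42 over the 10 members, and the part of these markers in the members' differences was not tested. Within slide 4 the YFP-positive minus YFP-negative differences at day 7 were -3.64 for Gstm3, -2.11 for Gstm1 and -3.14 for Gsta1, and within slide 7 they were -1.31 for Gstm3, -0.86 for Gstm1 and -0.80 for Gsta1. All 10 members were lower in the YFP-positive array of slide 4, where the hepatocyte marker mean differed by -2.36 and the median gene by 0.02. On slide 7, 6 were lower and 4 higher, Gsta4 (0.61), Gstt1 (0.77), Gstp1 (0.12) and Gstm4 (0.03), with the marker mean differing by 0.78 and the median gene by -0.34. At day 3, also with 0 genes called (0%), the members of lowest p were Gstm4 at 1.08 ± 0.47 (0.6), Gstt1 at 1.43 ± 0.91 (0.61) and Gstm3 at -0.96 ± 0.71 (0.63). No member had separate arrays there, beside 1.7% of genes lower and 3.8% higher. Within slide 1 at day 3, 7 members were lower and 3 higher in the YFP-positive array, 1 array against 1. The marker mean differed there by 1.27 and the median gene by -0.18. At day 14, where 6 genes passed (0.0225%), the members of lowest p were Gstm2 at -1.10 ± 0.49 (0.395), Gstm4 at 1.07 ± 0.56 (0.449) and Gstm3 at -1.48 ± 0.85 (0.495). Gstm2 was lower and Gsta3, Gstm4 and Gstt1 were higher in both YFP-positive arrays of day 14 than in all 3 YFP-negative ones, 1 and 3 of 10 beside 13.6% of genes lower and 20.6% higher, counts near the background.

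**Figure D4:**
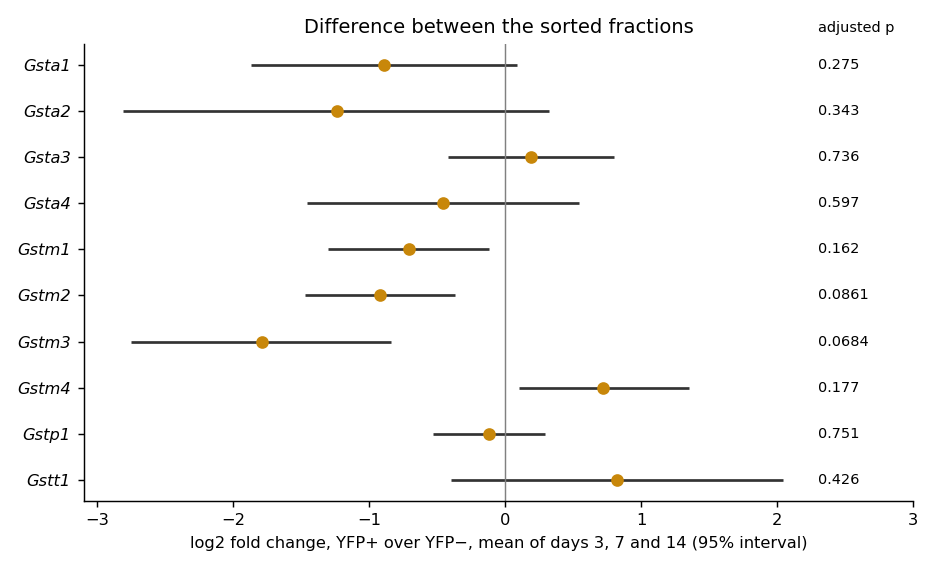
Fitted log2 fold change of YFP-positive over YFP-negative cells, mean of days 3, 7 and 14, for the 10 genes, with 95% intervals and the adjusted p at the right. The intervals of Gstm1, Gstm2 and Gstm3 lie below 0 and that of Gstm4 above it, and none of the adjusted p-values is under 0.05, the lowest being 0.0684 for Gstm3.

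Over time within a fraction, no member passed from day 3 to day 14. In YFP-positive cells, where 7 genes passed (0.0263%), the lowest p-values were those of Gsta3 at 0.65 ± 0.52 (adjusted p = 0.949), Gsta4 at 0.89 ± 0.84 (0.976) and Gstp1 at 0.33 ± 0.35 (0.985). In YFP-negative cells, where no gene passed (0%), they were those of Gsta3 at 0.69 ± 0.49, Gstm1 at 0.62 ± 0.47 and Gstm2 at 0.57 ± 0.44, each with an adjusted p of 1. The difference between the fractions did not pass a test of its own change from day 3 to day 14 for any member (0% of genes), the lowest p being that of Gstm1 at -0.75 ± 0.68, then Gstm2 at -0.61 ± 0.64 and Gsta2 at -0.98 ± 1.82. Day 7 against day 3 was added after the day 7 levels had been seen. All 10 members were higher at day 7 than at day 3 in YFP-negative cells, by a median of 1.26 beside 0.05 over all genes, with Gstm1 at 1.45 ± 0.47, Gsta1 at 2.04 ± 0.78 and Gstm3 at 1.90 ± 0.76, but each had an adjusted p of 1 and no gene passed (0%). Of the 18 hepatocyte markers 17 were higher in the same comparison, by a median of 1.69. The change of the fraction difference over the same days was negative for all 10, with a median of -1.54 beside -0.14 over all genes, and again no gene passed (0%). It was negative for all 18 hepatocyte markers too, with a median of -1.36. The lowest p-values were those of Gstm1 at -1.82 ± 0.64, Gsta1 at -2.31 ± 1.07 and Gstm3 at -1.97 ± 1.05.

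Hepatocyte markers moved with part of the family. The mean of the 18 markers correlated over the 20 arrays with Gstm3 (r = 0.84), Gsta1 (0.75), Gsta4 (0.70), Gsta2 (0.64), Gstm1 (0.64) and Gstp1 (0.53), less with Gstm2 (0.27), Gsta3 (0.19) and Gstm4 (0.11), and with Gstt1 at -0.19, all as descriptions over arrays that share groups and slides. In YFP-negative cells of day 7 that mean was -0.07, 1.23 and 2.33, against -1.57 and -0.93 at day 0, and each of the 18 markers was higher there on average, by a median of 2.67, though none passed the test. With the marker mean as a covariate, the Gsta1 difference in this comparison was 3.97 (adjusted p = 0.0973) and that of Gsta2 7.13 (0.0938), so both calls were lost. The marker mean was below both day 0 arrays on 3 sorted arrays, YFP-positive day 3 replicate 4 (-2.02), YFP-negative day 3 replicate 3 (-1.90) and YFP-positive day 7 replicate 1 (-1.63). On these, Gsta1 was at 2.24, 0.72 and 2.03, against -1.10 and -0.37 at day 0, and Gsta2, Gstm1, Gstm3, Gstp1 and Gstt1 were likewise above both day 0 arrays on all 3, so 6 of 10 members beside 10.6% of all genes. Gstm2 was above both on none of the 3, and Gsta3 (3.84), Gsta4 (-3.45) and Gstm4 (-5.01) were not above both on YFP-negative day 3 replicate 3. Gsta1, Gsta2, Gstm1 and Gstm3 were above both day 0 arrays on all 18 sorted arrays. Their place among the 6 of 10 was therefore set by that earlier count and adds nothing to it. The part of the markers in the differences from day 0 was not tested on these arrays.

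**Figure D5:**
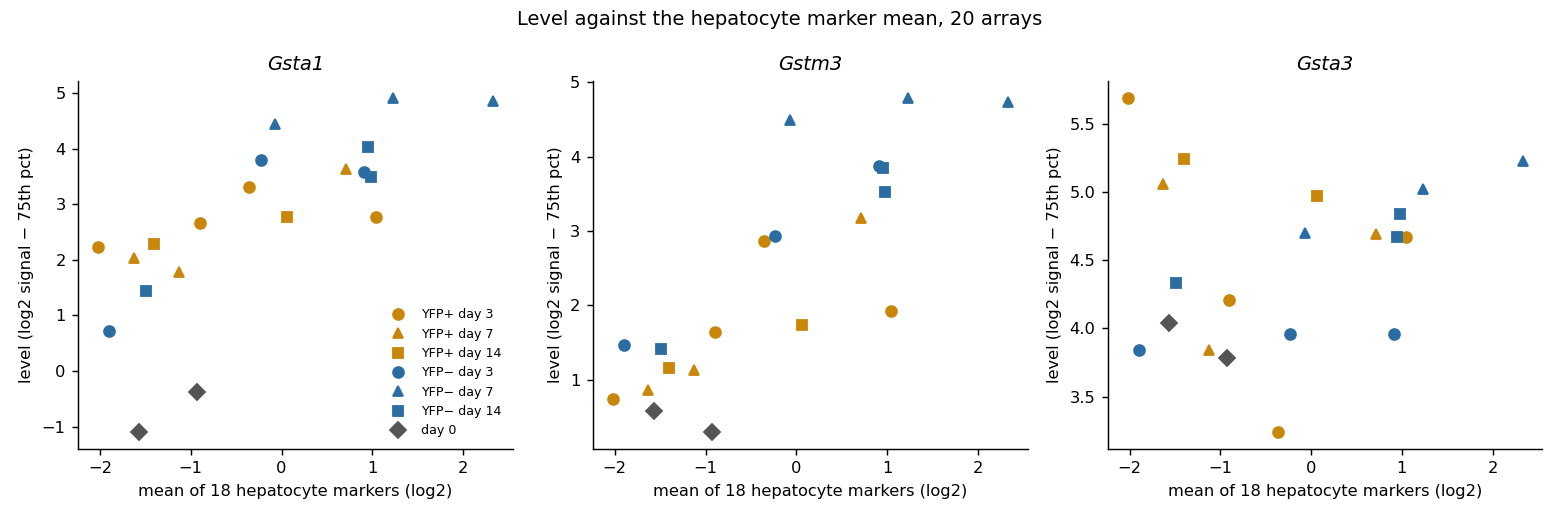
Levels of Gsta1, Gstm3 and Gsta3 against the mean of 18 hepatocyte markers, 1 point an array, colour for YFP-positive, YFP-negative and day 0 and shape for the day. Gsta1 (r = 0.75) and Gstm3 (r = 0.84) climb with the markers and Gsta3 (r = 0.19) does not. The day 0 points of Gsta1 are at -1.10 and -0.37, and day 0 differs from the sorted arrays in diet and sort as well.

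Among the members themselves, Gsta1, Gsta2, Gsta4, Gstm1 and Gstm3 varied together, with r from 0.67 to 0.93 in their 10 pairs, a grouping made after the values were seen, while the median r over all 45 pairs was 0.36. Gstm2 and Gstm4, neighbours of Gstm1 and Gstm3 in the chromosome 3 cluster, correlated with each other at -0.35. For 1 member of each class, picked by its probe's signal, which orders probes and not transcripts, the genes of the most similar pattern were sought over the 20 arrays among 16332 genes with a symbol. Among the 3 of highest r for each were Adk, Pcbd1 and Selenbp1 for Gsta3 (r = 0.914, 0.891 and 0.886), Phyh and Cdo1 for Gstm1 (0.914 and 0.86), Etfa, Aldh1a7 and Nrn1 for Gstp1 (0.91, 0.853 and 0.832) and Gpt2, As3mt and Tst for Gstt1 (0.911, 0.898 and 0.875).

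Genes around the family were counted from lists. Of 25 genes that make, recycle, use or export glutathione, none passed between the fractions over the mean of days, and 12 were higher and 13 lower in YFP-positive cells, median 0.00. The 2 of lowest p were Ggt5, which cleaves glutathione outside the cell, at -1.32 ± 0.30 (adjusted p = 0.0539), and Gpx2, an epithelial glutathione peroxidase, at 2.12 ± 0.50 (0.0584). Of 20 other glutathione transferases and relatives measured, out of 23 listed, none passed either, with 9 higher and 11 lower and a median of -0.03; Ptges, a prostaglandin E synthase, was at -1.79 ± 0.67 (0.15) and Gstm5 at 0.63 ± 0.28 (0.215). Of 23 NRF2 targets and regulators, 1 passed, beside 0.641% of all genes. This was Aox1, aldehyde oxidase, which fell by 1.36 ± 0.24 on the log2 scale in YFP-positive cells (adjusted p = 0.0315). Its levels were -2.59 to -1.54 in YFP-positive and -1.52 to -0.95 in YFP-negative cells at day 3, and -3.24 to -2.45 in YFP-positive and -2.04 to -1.0 in YFP-negative cells at day 7. At day 14 they were -2.50 to -2.33 in YFP-positive and -0.89 to -0.26 in YFP-negative cells, without overlap on any day. Of all genes, 1.7%, 5.11% and 13.6% were lower without overlap at days 3, 7 and 14. At day 3 the nearest Aox1 levels were -1.54 and -1.52. The Aox1 call was lost in 7 of 20 fits without 1 array, those without YFP-positive day 7 replicate 1, YFP-positive day 14 replicates 1 and 2, YFP-negative day 3 replicate 4, YFP-negative day 7 replicates 1 and 3 or YFP-negative day 14 replicate 1 (adjusted p up to 0.0717). It was also lost with slide as a fixed block (-1.12, adjusted p = 0.489), with the replicate block (-1.36, 0.0594) and with the hepatocyte marker mean as a covariate (-1.29, 0.0642). Of 14 measured xenobiotic receptors and their CYP and conjugation targets none passed, 3 being higher and 11 lower. Cyp1a2, a drug-metabolising enzyme of hepatocytes, was at -2.79 ± 0.64 (0.0547) and Cyp1b1 at -2.52 ± 0.92 (0.143).

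Against day 0, the mean level of the 23 NRF2 genes was 1.5 to 2.17 on the 18 sorted arrays and 0.99 to 1.25 on the day 0 arrays, and that of the 25 glutathione genes was -0.33 to 0.41 on sorted arrays and -0.67 to -0.48 at day 0, without overlap in either list. The 10 members gave 0.56 to 2.99 on sorted arrays and -0.42 to 0.17 at day 0. These day 0 means include Gsta2 at -7.41, not well above background, and at -1.86, which lower them. A mean without Gsta2 was not taken. The 20 other transferases overlapped, at -1.06 to -0.14 on sorted arrays and -0.79 to -0.52 at day 0, as did the xenobiotic list, at -1.82 to 0.31 on sorted arrays and -1.01 to -0.86 at day 0. In YFP-negative cells of day 7, none of the 25, 20, 23 and 14 genes of these 4 lists passed against day 0, and their medians were 0.40, 0.12, 0.90 and 0.46, beside -0.36 over all genes.

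The authors' deposited table gives linear fold changes against day 0 with a false discovery rate in percent, by a method that is not stated. Its columns name groups and not samples, so its values may also rest on the 6 samples that are not analysed here. In the authors' deposited table Gsta1 was 42.3-fold higher in YFP-negative cells of day 7 (rate 0) and 9.22-fold higher in YFP-positive cells of that day (0.82). For Gsta2 the authors' deposited table gave 315-fold in YFP-negative (1.02) and 53.5-fold in YFP-positive cells (2.76) of day 7. For Gstm3 the authors' deposited table gave 19.0-fold in YFP-negative (0) and 2.86-fold in YFP-positive cells (8.98) of day 7. In YFP-negative cells of day 7 the authors' deposited table gave Gsta4 23.3 to 27.1-fold over its spots (0.73). There it gave Gstm1 4.6-fold (0.9) and 6.2-fold (0.73) by its probes, and Gstm2 1.03-fold (50.8). At days 3 and 14 the authors' deposited table gave Gsta1 9.46 to 11.2-fold over both fractions (0 to 3.27).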

How the data were processed

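RNA of mouse liver cells was measured on Agilent 1-colour arrays. Of 26 samples, 20 had a scanner file, and the other 6 are not analysed here. Per the labels, the WT-Ovation Pico system of NuGEN amplified the RNA and Cy3 was the dye. The submitters' processing notes name Feature Extraction 9.53, and the file headers name 10.5.1.1 and design 014868. The processed signal is an intensity, background-subtracted and detrended and without normalization between arrays, per the file headers; normexp used the mean signal and background intensity. The deposited series table holds the authors' signed fold change (a ratio) and false discovery rate in percent, used for comparison.

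Control and outlier spots were left out, spots of a probe were averaged, and the log2 signal minus the array's 75th percentile was taken. A probe was kept if it stood well above background on 2 arrays or more (39615 were), and the probe of highest mean represented each gene (26665 genes, 296 of them with a missing value, none a member). One limma 3.58.1 fit in R 4.3.3 (statmod 1.5.0, jsonlite 2.0.0, and version 1.17.8 of data.table) over 7 groups gave 15 comparisons (2 of them added later), with 2.32 prior and 13 residual degrees of freedom and Benjamini-Hochberg adjustment over all genes; the threshold was 0.05. The script was tested on simulated data. The number of arrays limits the precision.

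All 10 members are named, with test values for each in the mean of days and elsewhere for members past the threshold plus the 3 of lowest p; from each list of other genes came the members past the threshold, otherwise the 2 of lowest p. Members, lists and tests were chosen with earlier results of these data known. Alternatives were normexp (offset 50), quantile normalization, 2 other filters, other uses of several probes, slide and replicate blocks, a hepatocyte covariate and leaving out each array. Foxl1 is not analysed here, and 1 gene of a pattern like that of Gstm1 is not reported here. The labels state no pairing of samples by replicate number, so the main fit has none. Figures were drawn with matplotlib 3.10.9 in Python 3.11.15 with pandas 2.3.3.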

Additional observations from a re-analysis of the deposited data

Results flagged for a closer look

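In the only group of 4 arrays, YFP-positive cells of day 3, 13 probes were checked for 1 array far from the other 3, of which chance picks about 1 in 20. Gstm4 was picked for replicate 3, at -2.67 against -2.41, -2.40 and -2.38, a gap of 0.877 of the range. The second probe of Gstp1 was picked for replicate 4, at 4.12, a gap of 0.965 of the range, while its first probe was at 4.25 on that array and was not picked.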

How the results depend on the processing

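Among members, the calls in YFP-negative cells of day 7 against day 0 numbered 2, and 1 under the filter of 10 arrays (Gsta2; Gsta1 adjusted p 0.0523), 0 with slide as fixed block, 0 with the replicate block (Gsta1 5.82, Gsta2 10.07), 0 with the hepatocyte marker mean as a covariate, and 0 to 3 without 1 array, 3 including Gsta4. In the mean of days between the fractions the count of 0 became 1 with quantile normalization and was 0 to 1 without 1 array. In YFP-positive cells of day 3 against day 0 it became 1 with the hepatocyte covariate (Gsta2, 6.62) and was 0 to 1 without 1 array, as it was in YFP-positive cells of days 7 and 14 and YFP-negative cells of days 3 and 14, in each case Gsta2 without day 0 replicate 2, where the 1 day 0 array left was not well above background for Gsta2, so these passes measure no fold. Among the values of members that turned round were, in the mean of days, Gsta3 at -0.12 and Gstt1 at -0.14 (slide as fixed block) and Gsta4 at 0.02 with the hepatocyte covariate, Gstt1 at day 3 at -0.11 (slide as fixed block), and Gsta2 in the day 14 minus day 3 change of the fraction difference, at -1.95 to 0.03 without 1 array (0.03 without YFP-negative day 3 replicate 3). Gstm2 in YFP-negative cells of day 7 against day 0, at -0.14, ran from -0.44 to 0.18 without 1 array (0.18 without YFP-negative day 7 replicate 4, 0.01 without day 0 replicate 1). None of these 6 passed the threshold in either setting. The cause of these changes was not tested. The losses of the Aox1 call are given with its result.

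With normexp background correction the median over all genes of YFP-positive minus YFP-negative cells was -0.42 at day 3 and 0.49 at day 14, beside 0.15 and 0.13 with the processed signal. Over all genes, the calls in the mean of days numbered 171, with 2 to 1126 under the other settings and 16 to 1219 without 1 array, and those of YFP-negative day 7 against day 0 numbered 14, with 0 to 14 and 0 to 42. In deviations from the group means, 8 of 43 pairs of arrays of the same number correlated over 0.1 (median 0.0047). Of pairs of different number, 26 of 127 did (median -0.00399). Most same-number pairs cross days or involve day 0. Between the fractions of a single day they ran from -0.2392 (day 14 replicate 2) to 0.391 (day 7 replicate 1). With so few arrays a group, pairing by mouse was neither shown nor excluded. The labels state none, so the block is an alternative and not a pairing by design. With 2 day 0 arrays, precision against day 0 is limited, and dim probes such as Gsta2 at day 0 are limited by background.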
